A study of Mus musculus with 21 samples.

Results

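The TREM receptors of myeloid cells and the adaptor they signal through were followed in inflammatory monocytes (IMs) of mice with lung squamous carcinoma (LUSC). The members were chosen by gene symbol, as the family receptors Trem1, Trem2, Trem3, Treml2 and Treml4 together with the adaptor gene Tyrobp, and all 6 had a row among the 23420 gene symbols of the count table. TREM receptors are single-pass surface proteins with 1 immunoglobulin-like domain. Most have a very short cytoplasmic tail and signal through DAP12, the product of Tyrobp, whose ITAM motif is phosphorylated by Src family kinases and then recruits the kinase SYK. TREM1 is known as an amplifier of inflammatory cytokine release in monocytes and neutrophils, TREM2 as a lipid-sensing receptor of tissue macrophages and microglia, and TREML4 as a receptor of Ly6C low blood monocytes and of splenic macrophages and dendritic cells.

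RNA was sequenced from 21 samples of sorted IMs (CD45+CD11b+Ly6G- cells with high Ly6C, and without SiglecF in lung). Tumor IMs (TIMs) of FVB mice came from primary lung tumors (n = 5) and from lymph node metastases (n = 5) of LN2E1, a LUSC line passaged in vivo and injected orthotopically into the lung at 500000 cells per mouse. TIMs of DBA2 mice came from lungs with metastases of LN4K1, injected intravenously at 300000 cells per mouse (n = 5), and bone marrow (BM) IMs came from mice of each strain without tumors (n = 3 each). Mice of both sexes were injected at 8 to 15 weeks of age, and each model rests on 1 cell line. Strain, line, route and tissue changed together between the models, so their parts cannot be told apart. TIMs and BM IMs also differed in tumor and tissue together, because no IMs of tumor-free lung or lymph node were sampled. The study describes enzyme digestion for lung tissue. Tumor, tissue and its digestion therefore cannot be told apart in any comparison of TIMs with BM IMs.

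Libraries held between 80772922 and 101043568 counts, which gave each member at least 461 counts in every library, so counting error was small beside the spread between libraries. Of the 5 sort and chemokine receptor markers, all were detected in every group, and their summed level lay between 4454 and 7081 CPM (counts scaled to library size, with TMM factors). Within that list Ly6c1 and Ly6c2 were lower in each TIM group than in its strain's BM IMs, with log2 fold changes between -1.30 and -0.86, while Ptprc, which encodes CD45, was higher. BM IMs carried more RNA of neutrophil precursors (Elane, Mpo, Prtn3 and Ctsg), whose sum lay between 2107 and 2649 CPM in BM IMs and between 14.99 and 233 CPM in TIMs. The labels do not say whether the samples of a group came from separate mice, and the study's methods call the libraries of a group technical replicates, so SDs and p-values measure the spread between these libraries, which may be technical. In bulk RNA, more cells of a type and more RNA per cell cannot be told apart.

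The 5 receptor genes lie in 1 cluster on mouse chromosome 17 (GRCm38), all on the plus strand and without exon overlap with another gene. In order they are Trem1 (chr17:48232768-48246924), Trem3 (chr17:48247777-48258841), Treml4 (chr17:48264295-48275360), Treml2 (chr17:48299498-48312533) and Trem2 (chr17:48346401-48354147). The platelet receptor gene Treml1 follows at chr17:48359916-48367176, which brings the cluster to 134.4 kb. Tyrobp lies apart from them, at chr7:30413760-30417585.

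RefSeq promoter windows for GRCm38.p6 were held for only 3 of the 6 members, and the 250 bases before the start of each of these 3 are printed. Of these, Trem1 and Treml4 had the strongest rises in the cluster, and Trem2 had no detected change in any TIM group against BM IMs. Capitals mark the only match to the core motif of the myeloid factor PU.1 (GAGGAA or its reverse complement TTCCTC) in Trem1 and in Trem2. In Treml4 they mark both copies of the longest exact repeat. The windows lie on the plus strand at chr17:48232489-48232738, chr17:48264045-48264294 and chr17:48346151-48346400. Distances are counted from the RefSeq start, the base after each window, which for Trem1 lies upstream of the GENCODE start given above and for Treml4 and Trem2 is the same base.
Trem1: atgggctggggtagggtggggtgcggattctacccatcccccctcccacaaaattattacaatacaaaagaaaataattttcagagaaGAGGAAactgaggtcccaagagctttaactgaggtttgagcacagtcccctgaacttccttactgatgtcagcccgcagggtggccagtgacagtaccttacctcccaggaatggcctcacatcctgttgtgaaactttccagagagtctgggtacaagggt
Treml4: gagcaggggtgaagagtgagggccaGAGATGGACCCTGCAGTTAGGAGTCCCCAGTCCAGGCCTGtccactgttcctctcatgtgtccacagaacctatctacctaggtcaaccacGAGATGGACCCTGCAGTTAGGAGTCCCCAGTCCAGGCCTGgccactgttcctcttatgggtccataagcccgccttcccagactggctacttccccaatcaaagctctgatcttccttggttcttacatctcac
Trem2: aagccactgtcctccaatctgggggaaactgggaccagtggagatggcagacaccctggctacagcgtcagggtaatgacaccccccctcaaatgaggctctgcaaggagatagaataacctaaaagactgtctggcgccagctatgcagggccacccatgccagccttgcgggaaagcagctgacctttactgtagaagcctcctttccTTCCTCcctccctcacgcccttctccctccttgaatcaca
The Treml4 window holds 40 identical bases in direct repeat, starting 225 and 134 bases before the start of the gene. An exact repeat of at least this length was found in 90 of 32851 windows (0.274%). A PU.1 core follows each copy, at 178 and 87 bases before the start, and the core lies 162 bases before the RefSeq start of Trem1 and 40 bases before that of Trem2. That core occurred on either strand in 23.3% of all windows. A C/EBP pattern (TTNNGNAA, either strand, 36.8% of windows) was present in Trem1 and Treml4, and an AP-1 site (TGANTCA, which reads alike on both strands apart from the free base, 6.75% of windows) was present in Trem2. Neither the NF-kB pattern of GGG and CC with 5 free bases between them (45.8% of windows) nor the HIF core ACGTG (16.6%), each searched on both strands, had a match in these 3 windows. No searched motif overlapped another of a different kind in them, and a match describes letters, not a bound site.

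Trem1, an activating receptor of the family, showed the largest change of the 6 members in LN2E1 tumors. In CPM, the FVB BM IM libraries had 55.5, 59.1 and 79.7. The primary tumor TIM libraries had 854, 878, 1204, 1099 and 1074, and the lymph node TIM libraries had 1179, 1220, 1336, 1647 and 1790. Every LN2E1 TIM library therefore lay more than 10 times above every FVB BM IM library. In the other model the DBA2 BM IMs had 50.7, 44.4 and 81.8 CPM, and the LN4K1 lung TIMs had 156, 148, 243, 269 and 175 CPM. These groups did not overlap either, but each LN4K1 library stayed below each LN2E1 library.

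Trem1 rose 15.5-fold in primary tumor TIMs (log2 fold change 3.96 ± 0.19 SE, edgeR adjusted p = 4.04e-07), 22.1-fold in lymph node TIMs (4.47 ± 0.23, edgeR adjusted p = 6.93e-07) and 3.18-fold in LN4K1 lung TIMs (1.67 ± 0.28, edgeR adjusted p = 0.00216). The LN2E1 comparisons share the FVB BM IM libraries. Tested directly, the change in LN2E1 primary tumors exceeded the LN4K1 lung change by 2.30 ± 0.33 on the log2 scale (edgeR interaction, adjusted p = 0.000374), that is, 4.94-fold. Mature neutrophils also express Trem1. The 10 neutrophil markers summed to between 3816 and 4849 CPM in FVB BM IMs and to between 313 and 1569 CPM in LN2E1 TIMs, and in the other model to between 1221 and 1822 CPM in DBA2 BM IMs and between 1005 and 2054 CPM in lung TIMs. The markers did not move together. In primary tumors 6 fell, and Mmp8 and the chemokine receptor gene Cxcr2 rose, Cxcr2 from 2.12 ± 1.07 CPM (SD, n = 3) to 27.3 ± 26.1 CPM (SD, n = 5). In lymph nodes 7 fell and Cxcr2 rose, and in LN4K1 lung 5 fell and Mmp8 rose. Of all genes 61.9%, 37.4% and 24.9% changed in either direction in these 3 comparisons. The part of these markers in the change of Trem1 was not tested.

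Treml4 rose with Trem1 in all 3 TIM groups. In CPM it was 35.0, 43.9 and 28.0 in FVB BM IMs, against 433, 284, 270, 260 and 334 in primary tumor TIMs and 485, 633, 703, 631 and 620 in lymph node TIMs. In DBA2 BM IMs it was 21.1, 22.6 and 17.4 CPM, against 138, 144, 162, 167 and 114 CPM in LN4K1 lung TIMs. No TIM library overlapped the BM IMs, and the lymph node, primary tumor and LN4K1 lung groups did not overlap each other.

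The rise of Treml4 was 8.76-fold in primary tumors (log2 fold change 3.13 ± 0.22, edgeR adjusted p = 2.67e-06), 17.3-fold in lymph nodes (4.11 ± 0.20, edgeR adjusted p = 5.32e-07) and 6.75-fold in LN4K1 lung (2.75 ± 0.18, edgeR adjusted p = 6.27e-06). The difference between its changes in LN2E1 primary tumors and LN4K1 lung was 0.40 on the log2 scale and did not pass the test, unlike that of Trem1. Markers of Ly6C low monocytes moved in the same direction in part. Of 7 such markers, 5 rose and 1 fell in primary tumors, 6 rose in lymph nodes, and 5 rose and 1 fell in LN4K1 lung. Of all genes 33.3%, 20.2% and 13.9% rose in these comparisons. The summed level of the 7 markers went from between 352 and 634 CPM in FVB BM IMs to between 2433 and 4436 CPM in LN2E1 TIMs. In the DBA2 model it went from between 945 and 1022 to between 2122 and 3833 CPM. Nr4a1 was the largest part of these sums in TIMs, with means of 1939, 1474 and 2319 CPM in primary tumor, lymph node and LN4K1 lung TIMs. It had means of 152 and 467 CPM in FVB and DBA2 BM IMs. In LN4K1 lung Cx3cr1 stayed level (217 against 212 CPM) and Spn was lower (16.3 against 43.1 CPM). There Ace, Itgal, Eno3 and Cd36 had higher means than in DBA2 BM IMs. None of the 7 was at 0 in a group, and their part in the Treml4 result was not tested.

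Trem3, a DAP12-associated activating receptor beside Trem1 in mice, rose by less but in every TIM group. FVB BM IMs had 40.2, 38.6 and 36.5 CPM and DBA2 BM IMs 41.3, 39.8 and 39.4 CPM, a narrow range over both strains. Primary tumor TIMs had 76.2, 61.4, 66.2, 59.2 and 73.4 CPM, lymph node TIMs 132, 117, 99.5, 85.8 and 97.5 CPM, and LN4K1 lung TIMs 70.5, 73.2, 108, 74.1 and 91.8 CPM. All 15 TIM libraries lay above all 6 BM IM libraries. The fold was 1.73 in primary tumors (log2 0.79 ± 0.11, edgeR adjusted p = 0.000178), 2.77 in lymph nodes (1.47 ± 0.17, edgeR adjusted p = 9.64e-05) and 1.97 in LN4K1 lung (0.98 ± 0.16, edgeR adjusted p = 0.00192).

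**Figure D1:**
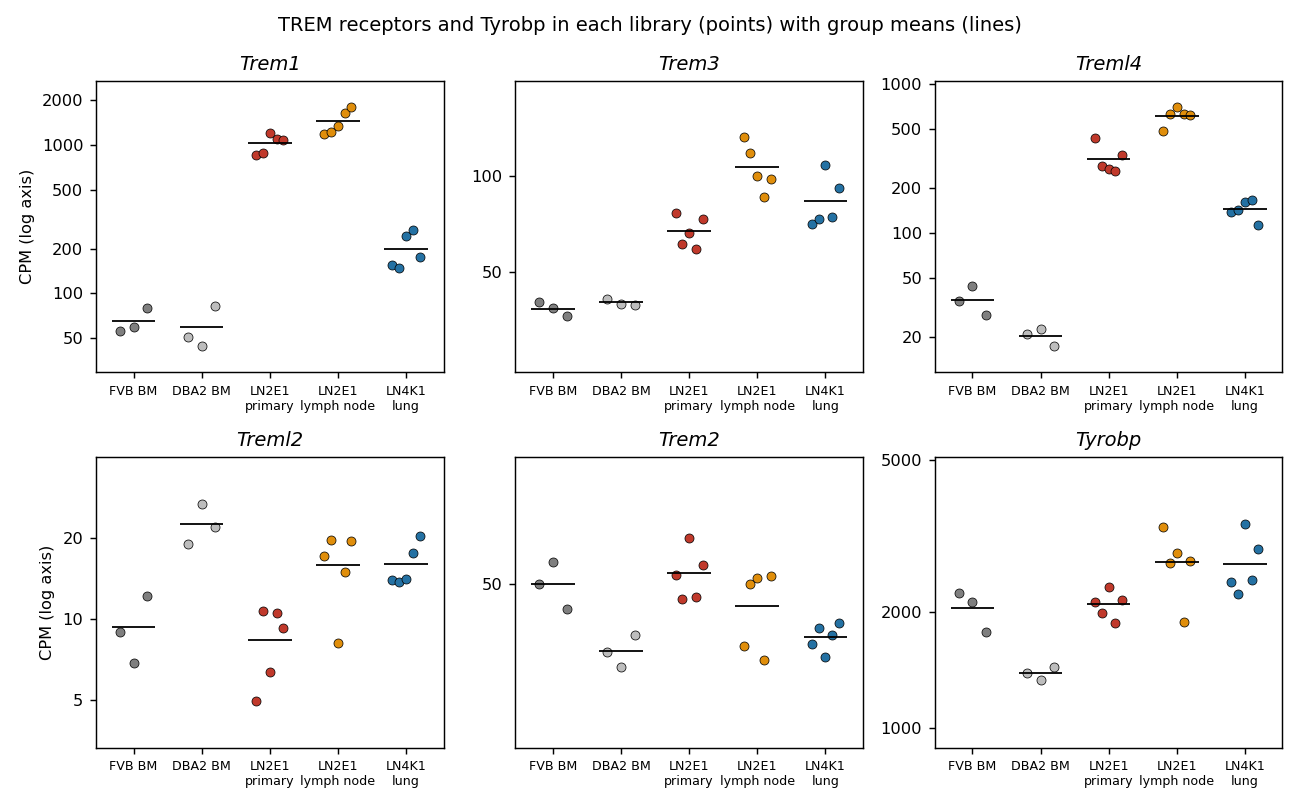
CPM of each member on a log axis in each of the 21 libraries (points) by group, with group means (lines). Trem1, Trem3 and Treml4 lie higher in every TIM library than in its strain's BM IMs, whereas Trem2 stays between 32.9 and 63.0 CPM in all libraries.

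Trem2, the receptor of lipid-laden macrophages, showed no change that passed the test in any TIM group. It had 49.8, 55.7 and 44.0 CPM in FVB BM IMs, 52.2, 46.2, 63.0, 46.8 and 54.8 CPM in primary tumor TIMs and 36.5, 50.0, 51.4, 34.0 and 52.0 CPM in lymph node TIMs. In DBA2 BM IMs it had 35.4, 32.9 and 38.6 CPM and in LN4K1 lung TIMs 36.9, 40.0, 34.5, 38.7 and 40.9 CPM. All these groups overlapped within their strain. Its log2 fold changes were 0.06 ± 0.13 in primary tumors (edgeR adjusted p = 0.703), -0.15 ± 0.19 in lymph nodes (edgeR adjusted p = 0.568) and 0.02 ± 0.12 in LN4K1 lung (edgeR adjusted p = 0.908).

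Genes often measured with Trem2 in lipid-associated macrophages are given beside it. Of the 12 on that list, of which Apoe and Lgals3 also stand among the ligands below, 9 rose and 2 fell in primary tumors, 5 rose and 3 fell in lymph nodes, and 6 rose and 2 fell in LN4K1 lung, with median log2 fold changes of 0.92, 0.36 and 0.45. The tetraspanin gene Cd9 and the protease gene Ctsl rose in all 3 (2.16, 2.44 and 1.30 for Cd9, and 2.63, 2.31 and 1.11 for Ctsl, log2), as did Apoe, which encodes a lipoprotein that TREM2 binds (1.02, 1.06 and 1.97). The lipoprotein lipase gene Lpl fell in all 3 (-2.49, -1.93 and -1.22). Of 8 macrophage markers 3 rose and 1 fell in primary tumors, 2 rose and 1 fell in lymph nodes, and 2 rose and 1 fell in LN4K1 lung. For both lists the share of all genes that rose was 33.3%, 20.2% and 13.9% in these comparisons. In either direction 61.9%, 37.4% and 24.9% of all genes changed. Spp1, which encodes osteopontin, rose in primary tumors and LN4K1 lung (1.74 and 2.74) and fell in lymph nodes (-0.74). Gpnmb had the largest rise of the 12 listed genes in primary tumors (6.01), to a mean of 23.3 CPM. In LN4K1 lung it rose at least 48.4-fold, to a mean of 1.53 CPM. Its mean in lymph node TIMs was 0.63 CPM.

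Treml2, a receptor best known on B cells, macrophages and neutrophils and not known to need DAP12, was the least abundant member. FVB BM IMs had 8.99, 6.84 and 12.2 CPM, primary tumor TIMs 4.97, 10.7, 6.36, 10.6 and 9.29 CPM, and lymph node TIMs 17.1, 19.8, 8.13, 15.05 and 19.5 CPM. DBA2 BM IMs had 19.0, 26.9 and 22.01 CPM and LN4K1 lung TIMs 14.0, 13.8, 14.1, 17.7 and 20.5 CPM. Its log2 fold change was -0.18 ± 0.29 in primary tumors and 0.77 ± 0.34 in lymph nodes, neither past the test (edgeR adjusted p = 0.610 and 0.103). In LN4K1 lung it was -0.58 ± 0.18 (edgeR adjusted p = 0.0475), with overlapping groups. The call was made under 5 of 15 alternative settings, and was lost without any 1 library except LN4K1 lung replicate 3 or 5.

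Tyrobp, which encodes the adaptor DAP12, was among the 60 genes with the most counts in every library. FVB BM IMs had 2250, 2134 and 1777 CPM, primary tumor TIMs 2134, 1991, 2323, 1881 and 2159 CPM, and lymph node TIMs 3344, 2693, 2859, 1884 and 2718 CPM. DBA2 BM IMs had 1391, 1330 and 1443 CPM and LN4K1 lung TIMs 2397, 2235, 3397, 2426 and 2920 CPM. The FVB groups overlapped, and the DBA2 groups did not.

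Tyrobp rose 1.82-fold in LN4K1 lung TIMs (log2 0.87 ± 0.15, edgeR adjusted p = 0.00265), while its log2 fold change was 0.01 ± 0.10 in primary tumors (edgeR adjusted p = 0.926) and 0.40 ± 0.18 in lymph nodes (edgeR adjusted p = 0.104). Its change in primary tumors was lower than that in LN4K1 lung by 0.84 ± 0.17 on the log2 scale (edgeR interaction, adjusted p = 0.00335), the opposite sign to the difference for Trem1. NK cells use DAP12 too. In LN4K1 lung 3 of 4 NK cell markers were called higher, beside 13.9% of all genes. The 4 markers went from 0 counts in every DBA2 BM IM library to a sum between 5.78 and 13.5 CPM. Their part in the Tyrobp result was not tested.

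Set against all genes, 3 of 6 members were called in primary tumor TIMs (adjusted p under 0.05, all higher), where 61.9% of 14569 genes were called and 33.3% were called higher. In lymph node TIMs 3 of 6 were called, all higher, against 37.4% of 13273 genes and 20.2% higher. In LN4K1 lung TIMs 5 of 6 were called, 4 higher and 1 lower, against 24.9% of 13624 genes, 13.9% higher and 11% lower. The groups did not overlap for 3, 3 and 4 members, against 58.1%, 42.9% and 34.8% of genes. Trem1, Trem3 and Treml4 were called higher in all 3 TIM groups, as were 7.94% of the 12782 genes tested in all 3.

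The stricter thresholds of the study (adjusted p under 0.0001 and a log2 fold change beyond 1 in either direction) were set for DESeq2 with shrunken fold changes. Here they were applied to the edgeR fits. Trem1 and Treml4 passed in primary tumors (12.9% of genes), Trem1, Trem3 and Treml4 in lymph nodes (5.71%) and Treml4 in LN4K1 lung (2.97%). The median log2 fold change over the 6 members was 0.42, 1.12 and 0.92, beside 0.08, -0.04 and 0.03 over all genes tested. For the interaction 2 of 6 members were called, against 26.5% of 15182 genes.

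**Figure D2:**
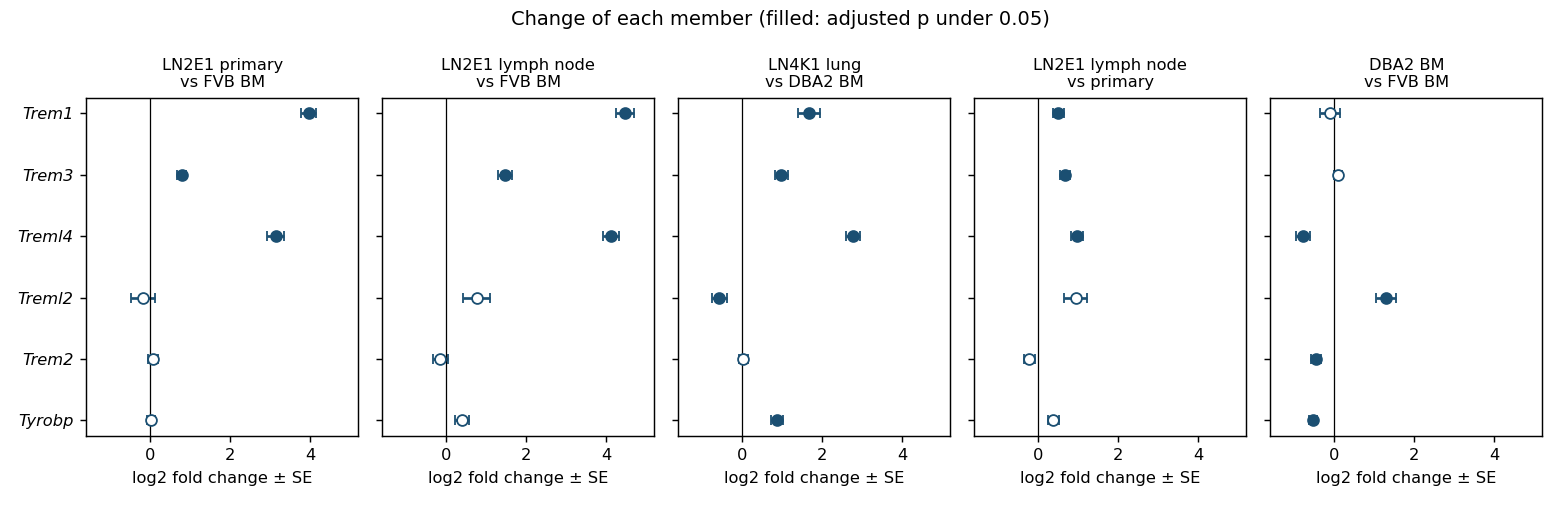
Log2 fold change of each member (points) with its SE (bars) in 5 comparisons, with filled points at an adjusted p under 0.05. Trem1 reaches 3.96 and 4.47 in LN2E1 TIMs and 1.67 in LN4K1 lung, and Trem2 lies between -0.15 and 0.06 in the 3 comparisons of TIMs with BM IMs.

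By position, the 3 receptor genes that rose in all TIM groups are neighbors at the Trem1 end of the cluster. Their starts lie 0, 15 and 31.5 kb from that of Trem1, and those of Treml2 and Trem2 lie 66.7 and 113.6 kb from it. The order of change did not follow distance within these neighbors, since Trem3, between Trem1 and Treml4, had the smallest rise of the 3 in every TIM group. Treml1, 127.1 kb from the start of Trem1, was carried at a mean of 2.62 ± 2.19 CPM (SD, n = 3) in FVB BM IMs and 0.0279 ± 0.056 CPM (SD, n = 5) in primary tumor TIMs, and no lymph node TIM library had a count. It fell in LN2E1 primary tumors (log2 -6.53, edgeR adjusted p = 0.00146) and was at least 65.9-fold lower in lymph nodes. The 5 platelet and megakaryocyte markers fell with it in both LN2E1 tissues, where 28.6% and 17.2% of all genes fell. The sum of these markers went from between 24.0 and 148 CPM in FVB BM IMs to at most 10.5 CPM in LN2E1 TIMs. Their part in the Treml1 result was not tested.

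**Figure D3:**
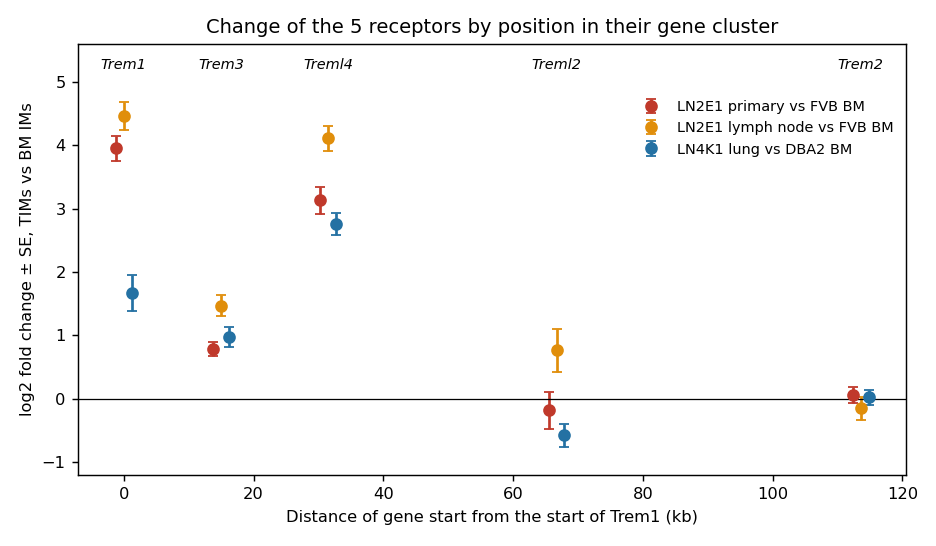
Log2 fold change with SE of the 5 receptor genes in each TIM group against the BM IMs of its strain, by the distance in kb of the gene start from the start of Trem1 (points of 1 gene are shifted sideways for legibility). The largest changes are those of Trem1 and Treml4, and Trem2 lies near 0 in all 3 groups.

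Lymph node TIMs were then compared with primary tumor TIMs of the same model. Treml4 was 1.96-fold higher in lymph nodes (log2 0.97 ± 0.15, edgeR adjusted p = 0.00280) and Trem3 1.59-fold higher (0.67 ± 0.13, edgeR adjusted p = 0.00620), both without overlap between the groups. Trem1 was 1.41-fold higher (0.50 ± 0.14, edgeR adjusted p = 0.0436) with overlap, and this call was kept under 7 of 17 alternative settings. It was lost without primary tumor replicate 1, 2, 4 or 5 or lymph node replicate 4 or 5. Called genes were 3 of 6 members, all higher, against 11.7% of 13488 genes and 6.15% higher, and groups did not overlap for 2 members, against 14.4% of genes. Treml2 (0.94 ± 0.29), Tyrobp (0.37 ± 0.13) and Trem2 (-0.22 ± 0.15) had edgeR adjusted p of 0.0578, 0.0933 and 0.378. Of the 7 markers of Ly6C low monocytes, 3 were also higher in lymph nodes and none was lower.

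The BM IMs of the strains, compared without a tumor, differed for 4 of 6 members, 1 higher and 3 lower in DBA2, against 21.1% of 12905 genes called, 11.5% higher and 9.57% lower, and 42% without overlap. Treml2 was 2.45-fold higher in DBA2 (log2 1.29 ± 0.25, edgeR adjusted p = 0.00960). Tyrobp (-0.54 ± 0.10, edgeR adjusted p = 0.00973), Treml4 (-0.78 ± 0.18, edgeR adjusted p = 0.0205) and Trem2 (-0.46 ± 0.13, edgeR adjusted p = 0.0364) were lower in DBA2. These 4 members also had groups without overlap. The call of Tyrobp was lost without replicate 2 of either strain, that of Treml4 without FVB replicate 1 or 2 or DBA2 replicate 1 or 3, and that of Trem2 without any 1 library except FVB replicate 3. The call of Treml2 was kept without any of them. Trem1 and Trem3 had log2 differences of -0.12 ± 0.25 and 0.09 ± 0.11 (edgeR adjusted p = 0.769 and 0.591).

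Across the 5 groups, mean Trem1 and Treml4 levels ran in the same order, from lymph node TIMs through primary tumor TIMs, LN4K1 lung TIMs and FVB BM IMs to DBA2 BM IMs. Trem1 means were 1434 ± 270, 1022 ± 151, 198 ± 54.3, 64.8 ± 13.1 and 59.0 ± 20.1 CPM (SD, n = 5, 5, 5, 3 and 3). Neighbors whose libraries overlapped were lymph node with primary tumor TIMs, and the BM IMs of both strains. Treml4 means were 615 ± 79.3, 316 ± 71.4, 145 ± 21.1, 35.6 ± 7.99 and 20.4 ± 2.67 CPM, and no neighbors overlapped. For Trem3 only the step from primary tumor TIMs to DBA2 BM IMs was free of overlap. For Tyrobp this held only for FVB against DBA2 BM IMs, and for Trem2 and Treml2 at no step. Exact two-sided permutation tests of the 60 pairs of groups gave 0 adjusted p under 0.05, the smallest being 0.0595. The smallest exact p that the group sizes allow is 0.00794 for 5 libraries against 5, 0.0357 for 5 against 3 and 0.1 for 3 against 3.

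Between genes, levels can be compared only per length of transcript. In CPM per kb of the union of exons, FVB BM IMs carried Trem3 at 38.7 ± 1.84, Trem1 at 21.6 ± 4.36, Treml4 at 17.8 ± 4.001, Trem2 at 10.1 ± 1.19 and Treml2 at 1.90 ± 0.55 (SD, n = 3). In primary tumor TIMs Trem1 led with 341 ± 50.2, before Treml4 with 158 ± 35.8 and Trem3 with 67.7 ± 7.43 (SD, n = 5). Trem1 made up 24.0% ± 5.15 of the summed receptor level in FVB BM IMs, 58.8% ± 6.80 in primary tumor TIMs and 52.5% ± 4.97 in lymph node TIMs. In the DBA2 model it made up 23.7% ± 6.45 in BM IMs and 27.9% ± 4.12 in LN4K1 lung TIMs, where Trem3 (36.0% ± 4.90) and Treml4 (31.2% ± 3.82) had larger shares. The length used mattered for Trem2, whose exon union (4946 bases) is much longer than its principal transcript (1088 bases). By principal transcript length, chosen after the data were seen, Trem2 led in FVB BM IMs with 45.8 ± 5.39 CPM per kb against 38.7 ± 1.84 for Trem3. With that length Trem1 still led in LN2E1 TIMs with 53.1% ± 6.43 in primary tumors and 48.3% ± 4.93 in lymph nodes. In LN4K1 lung TIMs Trem3 and Treml4 then had nearly equal shares (30.4% ± 4.19 and 30.2% ± 3.45).

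The adaptor RNA exceeded the receptor RNA in every group. Per kb of exon union, the 5 receptors together came to 2.95% ± 0.36 of the Tyrobp level in FVB BM IMs and to 3.94% ± 0.12 in DBA2 BM IMs (SD, n = 3). They came to 18.5% ± 1.18 in primary tumor TIMs, 23.4% ± 6.84 in lymph node TIMs and 5.89% ± 0.80 in LN4K1 lung TIMs (SD, n = 5). Lymph node libraries were the most spread, from 15.6% to 34.1%, and LN2E1 TIM libraries of both tissues lay above every BM IM and LN4K1 lung TIM library. Trem1 alone went from at most 0.999% of Tyrobp in FVB BM IMs to at least 7.85% in LN2E1 TIMs.

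**Figure D4:**
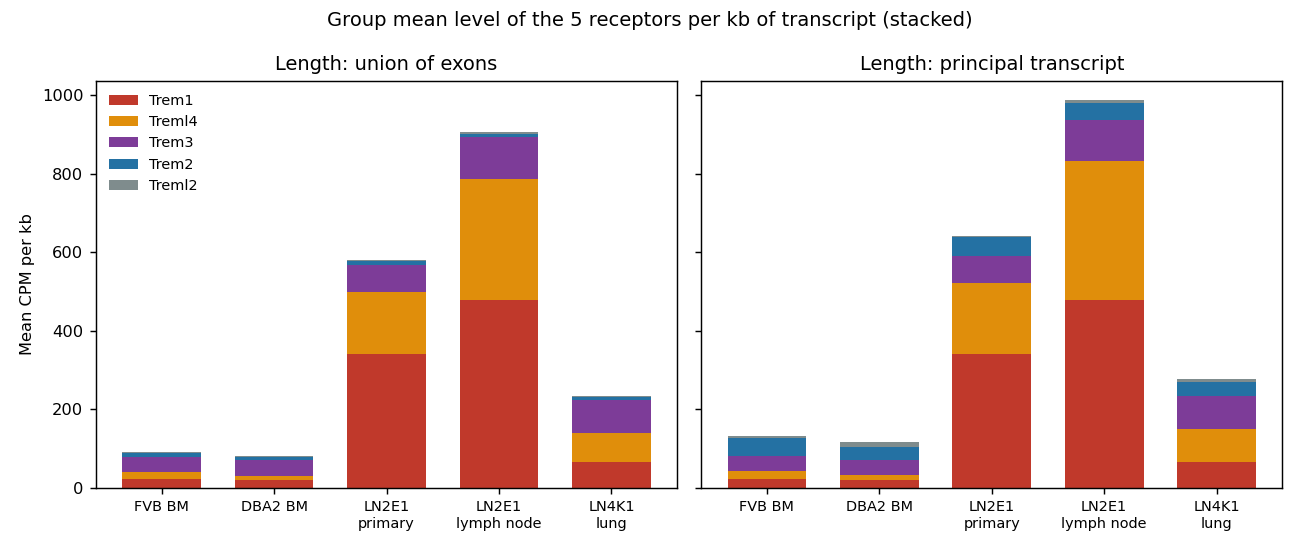
Stacked group means of the 5 receptors in CPM per kb, with the length taken as the union of exons (left) or the principal transcript (right). Trem1 and Treml4 make up most of the bars of LN2E1 TIMs with either length, and the share of Trem2 depends on the length.

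Genes whose levels followed each member most closely were found by the root mean square (RMS) difference of centered log2 CPM over the 21 libraries, among 8016 genes. For Trem1 they were Mxd1, Bhlhe40 and Crem, all transcriptional regulators, with RMS differences of 0.404, 0.414 and 0.422 beside a spread of 1.90 for Trem1 itself. For Treml4 they were Tspan13 (0.393), the MHC class II gene H2-Aa (0.411) and Smpdl3b (0.429), beside a spread of 1.76. For Trem3 they were Rnf13, Dram2 and the death receptor gene Fas (0.170 to 0.174, spread 0.57), and for Tyrobp Emc7, Med29 and Tmem128 (0.111 to 0.134, spread 0.37). For Trem2 (Edem2, Tpp1 and Araf, 0.188 to 0.196, spread 0.27) and Treml2 (Adrbk1, Lmo2 and Dcun1d1, 0.446 to 0.469, spread 0.64) the differences were a larger part of the member's own spread than for the other members. These are descriptions over libraries that share their groups.

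Most other receptors listed with DAP12 rose too. The list also holds Treml1, which is not known to use DAP12. Of its 12 genes 11 were tested against BM IMs, and 8 rose and 2 fell in primary tumors, 7 rose and 2 fell in lymph nodes and 8 rose in LN4K1 lung, beside 33.3%, 20.2% and 13.9% of all genes that rose and 61.9%, 37.4% and 24.9% that changed in either direction. The median log2 fold changes of the list were 1.05, 1.53 and 1.09. Siglech, a receptor of plasmacytoid dendritic cells and some macrophages, rose by 7.34 ± 0.60, 8.38 ± 1.02 and 7.23 ± 1.34 (log2). Its means were only 0.73 and 0.16 CPM in FVB and DBA2 BM IMs, and lymph node TIM libraries spread from 37.1 to 477 CPM. Cd300ld, an activating receptor of the CD300 family, rose by 3.47, 3.98 and 2.87. Klrk1, which encodes the NKG2D receptor, rose by 3.50, 4.50 and 1.09. Sirpb1a and Sirpb1b rose in all 3 by between 1.37 and 2.08, though these near-identical genes may share reads, as may Pilrb1 and Pilrb2. Treml1 and Cd300lb were the receptors that fell in LN2E1 TIMs. Of 8 dendritic cell markers, 6 rose in primary tumors and 4 in lymph nodes, and 3 rose and 1 fell in LN4K1 lung. Siglech is counted in both lists, and the part of these markers was not tested.

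Other adaptors of the same kind were also measured. Fcer1g, which encodes the Fc receptor gamma chain, rose in lymph nodes (0.58 ± 0.18, edgeR adjusted p = 0.0283) and LN4K1 lung (0.90 ± 0.22, edgeR adjusted p = 0.0145), the groups with the highest mean Tyrobp. Hcst, which encodes DAP10 and lies beside Tyrobp on the opposite strand at chr7:30417712-30419854, passed in none of the comparisons of TIMs with BM IMs. For Fcer1g and Hcst, as for Tyrobp, the change in primary tumors was lower than that in LN4K1 lung, by 0.75 and 0.67 on the log2 scale (edgeR interaction, adjusted p = 0.0350 and 0.0222).

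Of 17 signaling genes downstream of DAP12, 12 rose and 1 fell in primary tumors, 11 rose in lymph nodes and 5 rose in LN4K1 lung, beside the 33.3%, 20.2% and 13.9% of all genes that rose. Their median log2 fold changes were 0.83, 0.82 and 0.13. The Src family kinase genes Lyn and Fgr rose in all 3, Fgr by 1.41, 1.58 and 0.80. Syk rose in primary tumors (1.29 ± 0.17, edgeR adjusted p = 0.000126) and lymph nodes (1.31 ± 0.28, edgeR adjusted p = 0.00438) and had 0.15 in LN4K1 lung, and the difference between its changes in primary tumors and LN4K1 lung passed the test (1.16 ± 0.24, edgeR interaction, adjusted p = 0.00323). Of 10 inhibitors of ITAM signaling, 6 rose in each LN2E1 tissue and 3 in LN4K1 lung, with none lower. For both lists, 61.9%, 37.4% and 24.9% of all genes changed in either direction in the 3 comparisons. Inpp5d, which encodes the phosphatase SHIP1, rose by 1.62 and 1.40 in LN2E1 tissues, and the inhibitory receptor genes Pilra, Cd300a and Cd300lf rose in all 3.

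**Figure D5:**
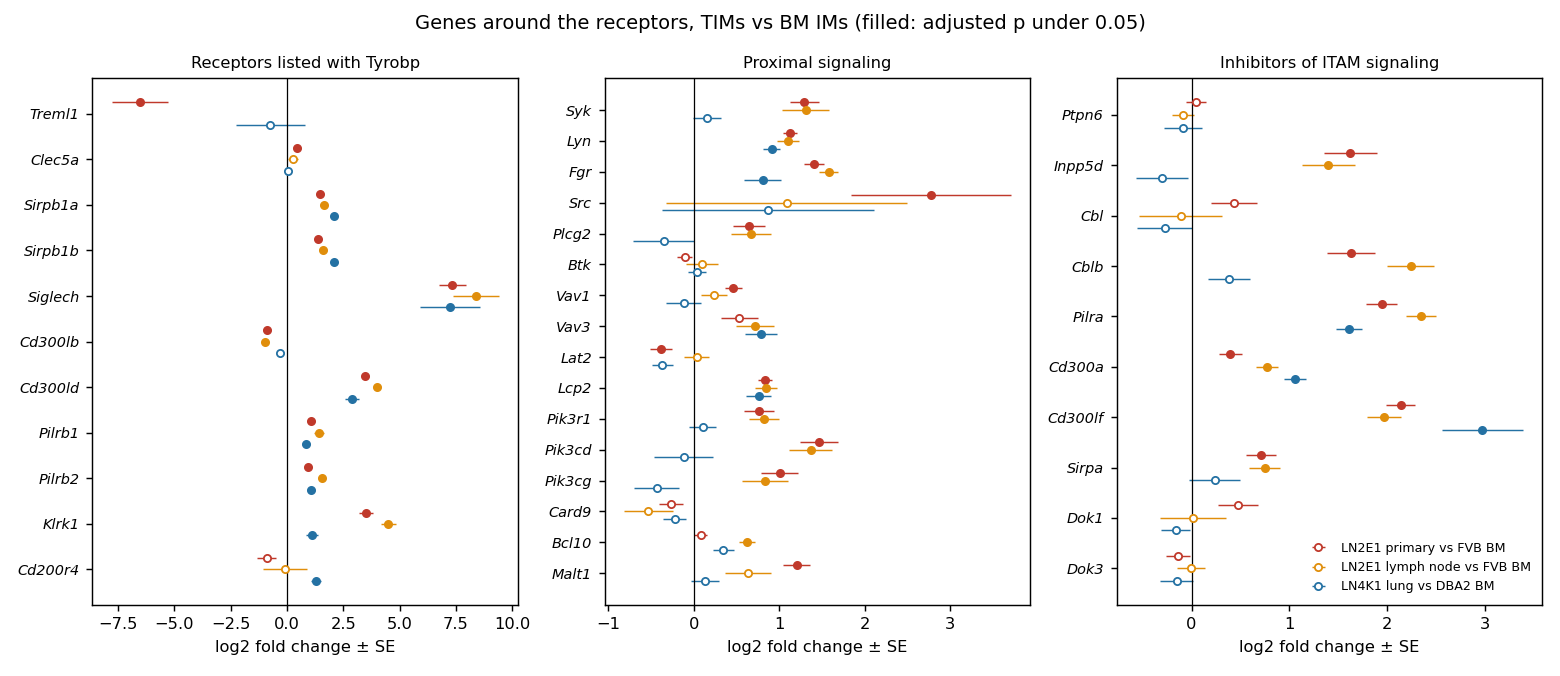
Log2 fold changes (points) with SE (bars) of receptors listed with Tyrobp, of proximal signaling genes and of inhibitors, in each TIM group against the BM IMs of its strain, with filled points at an adjusted p under 0.05. Syk and Inpp5d are filled for both LN2E1 tissues and open for LN4K1 lung. Genes at or under 3 counts in a whole group are not drawn for that comparison.

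Receptor shedding and ligands completed the pathway. Adam10 and Adam17, proteases that release soluble TREM receptors, both rose in LN2E1 tissues, Adam17 by 1.51 in primary tumors and 1.67 in lymph nodes (log2), and neither was called in LN4K1 lung. Of 8 candidate ligands, 3 rose and 5 fell in primary tumors, 3 rose and 3 fell in lymph nodes and 1 rose and 2 fell in LN4K1 lung. Among all genes tested, 33.3%, 20.2% and 13.9% rose in these comparisons and 61.9%, 37.4% and 24.9% changed in either direction. Pglyrp1, a peptidoglycan recognition protein that activates TREM1, fell in primary tumors and LN4K1 lung (-0.51 and -0.95) and rose in lymph nodes (0.72), and it was higher in lymph nodes than in primary tumors by 1.22 ± 0.15 (edgeR adjusted p = 0.000815). Hmgb1, which encodes a nuclear protein released as an alarmin, fell in all 3 (-1.54, -1.17 and -1.10). The largest rise among the ligands was that of Il34, from at most 1 count in any FVB BM IM library. It was at least 130-fold in primary tumors and at least 75.0-fold in lymph nodes, to low means of 4.43 and 2.56 CPM. Clu rose by 4.13 in primary tumors and was lower in lymph nodes than in primary tumors by 5.32.

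Of 10 cytokine and chemokine genes known as outputs of TREM1 signaling, 8 rose and 1 fell in primary tumors. In lymph nodes 8 of 9 tested rose and 1 fell, and in LN4K1 lung 6 of 9 rose, with medians of 2.85, 3.05 and 2.18. Beside them, 33.3%, 20.2% and 13.9% of all genes rose and 61.9%, 37.4% and 24.9% changed in either direction. Il1b, which encodes interleukin-1 beta, rose by 7.68, 6.95 and 7.14, and went from 8.86 ± 1.17 CPM in FVB BM IMs (SD, n = 3) to 1847 ± 346 CPM in primary tumor TIMs (SD, n = 5). Cxcl1, a neutrophil-attracting chemokine, rose by 6.35 in primary tumors and 4.66 in lymph nodes and was not called in LN4K1 lung (2.18), and the difference between its changes in primary tumors and LN4K1 lung passed the test (4.17 ± 0.89, edgeR interaction, adjusted p = 0.00390). Ccl3 fell in both LN2E1 tissues (-1.27 and -1.97) and rose in LN4K1 lung (0.84).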

How the data were processed

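RNA from sorted IMs was amplified from full-length cDNA (SMARTer ultra low input) and made into non-stranded Nextera XT libraries. The authors trimmed reads with BBDuk, aligned pairs to mm10 with BBMap and counted them per gene with featureCounts 1.5.2, with SAMtools 1.8 among the tools in the submitters' processing notes; the counting settings and annotation are not given in the sources used here. The deposited values are raw counts for 23420 gene symbols in 21 libraries, all assigned to 5 groups from the sample labels.

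TMM factors over all libraries scaled the CPM, with a prior count of 2 for log2 values. For each comparison, its own libraries were fitted over all genes with the robust quasi-likelihood test of edgeR 4.0.16 in R 4.3.3 (filter at a minimum count of 10 and a total of 15). P-values were adjusted by Benjamini-Hochberg across tested genes, and a gene was called at an adjusted p under 0.05. SE is the absolute log2 fold change divided by the square root of F, which is approximate. The tests were checked on simulated counts. Positions and lengths came from GENCODE vM21 (GRCm38), by symbol. Single members were also tested with two-sided exact permutation tests of mean log2 CPM. A group at or under 3 counts in every library gave only a lower bound, taken per library.

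Genes set for naming were all 6 members, up to 4 called genes per pathway list by size of change, and the 3 genes nearest to each member with a mean log2 CPM over 3. Not all of the pathway genes so set are named. Others named in the text were chosen after their values were seen. The members, lists and tests were chosen with earlier results of these data known. A gene of the signaling list is included in its counts and medians but is neither drawn nor reported here by itself. Alternatives were DESeq2's size factors, no filter, at least 10 counts in every library, 1 fit of all groups, the replicate number as a block, DESeq2 1.42.0, leaving out each library, and the study's thresholds.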

Additional observations from a re-analysis of the deposited data

Results flagged for a closer look

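The change of Trem1 in LN2E1 primary tumor TIMs exceeded that in LN4K1 lung TIMs by 2.30 on the log2 scale, a difference that passed the edgeR interaction test. Tyrobp differed in the opposite direction, by -0.84 on the same scale, and also passed. Strain, cell line, route and tissue changed together between these models and cannot be told apart. Among 18 groups of 5 libraries, no member had a library that stood apart from the others by Dixon's criterion. Over all genes, LN4K1 lung replicate 3 stood apart. Its chi-square per degree of freedom against the other lung libraries lay between 432 and 860, beside 45.5 to 248 among those. Without it 5036 of 13592 genes were called in LN4K1 lung in place of 3389 of 13624, so the 24.9% above depended on it. Lymph node replicate 1 had 293 to 515, beside 156 to 248 among the others of its group. Without it 6040 of 13201 genes were called against FVB BM IMs in place of 4969 of 13273.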

How the results depend on the processing

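Over 582 refits of the members, 525 kept their direction and side of the threshold, 33 lost a call, 9 gained one and 15 changed sign, and for called genes of the pathway lists 1609 of 1707 refits kept the call. All changes of sign were in members' log2 fold changes that had not passed the test. With 1 library left out, Trem2 ranged from -0.0181 to 0.168, Treml2 from -0.336 to 0.0760 and Tyrobp from -0.0684 to 0.105 in primary tumors, Trem2 from -0.0312 to 0.0880 in LN4K1 lung, Trem1 from -0.426 to 0.0817 between the strains, and Trem2 from -0.0236 to 0.136 for the interaction, where it was -0.0104 without a filter and -0.0114 in 1 fit of all groups. Calls of Trem1, Trem3 and Treml4 in all 3 TIM groups, of Tyrobp in LN4K1 lung, of Trem3 and Treml4 between tissues, of Treml2 between strains and of both interactions held under every alternative run at an adjusted p under 0.05. With the study's thresholds, applied to the edgeR fits, the count of members called was 1 in place of 5 in LN4K1 lung. It was 0 in place of 3, 4 and 2 for the tissues, the strains and the interaction. In shrunken DESeq2 fits, for which the study set them, these thresholds passed 1565 genes in place of 405 in LN4K1 lung. Between tissues they passed 177 genes in place of 4, so the counts of members given here hold for edgeR only. Leaving out 1 library gave between 1 and 4 members called between the strains, with 1 remaining without FVB BM IM replicate 2. Same-numbered samples had correlations of their deviations between -0.0999 and 0.0570. The sample of the same number was the closest for 5 of 6 samples of LN4K1 lung TIMs and DBA2 BM IMs. For lymph node TIMs and FVB BM IMs this held for 4 of 6, and for primary tumor TIMs and FVB BM IMs for 1 of 6. Between tissues it held for 2 of 10 and between strains for 2 of 6. The labels state no pairing, so the main fits took none. The replicate block gave 3, 4, 4, 2 and 3 members called in primary tumors, lymph nodes, LN4K1 lung, between tissues and between strains, and -0.00746 for Trem2 in LN4K1 lung. By principal transcript length, Trem1 made up 16.6%, 16.9% and 23.7% of the receptors in FVB BM IMs, DBA2 BM IMs and LN4K1 lung TIMs, and the receptors came to 3.63% and 4.69% of Tyrobp in FVB and DBA2 BM IMs. DESeq2 size factors moved no group mean of a member by more than its SD.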
